A study of Mus musculus with 2 samples.

Results

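Mature NK cells of B16-OVA tumors were taken as the NK cells with at least 2 UMIs (unique molecular identifiers, each standing for 1 captured transcript), in sum, of *Klrg1*, *S1pr5* and *Itgam*, 3 genes of late NK cell stages. They were 261 of the 13470 cells kept from both libraries, with 56 of 7241 cells in the control library and 205 of 6229 in the creatine library. The members were chosen by their measured UMI counts. A cell counted as an NK cell when it held at least 2 UMIs of *Ncr1* and *Klrb1c*, at most 1 UMI of *Cd3d*, *Cd3e* and *Cd3g*, and none of *Cd8a*, *Cd8b1* or *Csf1r*. The values of these genes in mature NK cells therefore describe the choice and are not results. The same gate without a UMI of *Klrg1*, *S1pr5* or *Itgam* gave 419 control and 571 creatine cells, called no-marker cells, which are the comparison population throughout.

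The data are 2 droplet libraries of CD45+ tumor-infiltrating immune cells from C57BL/6J mice that carried subcutaneous tumors of B16-OVA, a mouse melanoma line made to express ovalbumin. The control group is labelled PBS and nontreated, and the other group received intraperitoneal injections of 10.5 mg of creatine. In both groups 4 tumors of day 14 were combined, live CD45.2+ cells were sorted, and 10000 cells were loaded on the 10x Chromium platform with a 3′ kit, so that animals cannot be told apart within a library. The methods give male mice of 8 to 12 weeks of age. The treatment label of the control library is PBS, but its protocol entry lists the creatine injection for both groups, and the methods and a legend differ from the labels in the harvest day and in the number of mice. Every ratio of creatine to control rests on the title and treatment label. With 1 library per group there is no replicate, so the ratios carry no test or p-value, and library and treatment cannot be told apart. The 95% intervals cover counting error only. Of the barcodes, 30 occurred in both libraries, among them that of 1 creatine and of no control member.

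NK cells are innate lymphocytes that kill target cells with perforin and granzymes and recruit other cells with chemokines. In the mouse they mature from CD27+ stages, which hold *Tcf7* and cytokine receptors such as *Il7r*, to CD11b+ and then KLRG1+ stages that circulate under the control of the sphingosine phosphate receptor S1PR5. *Itgam* encodes CD11b, *Klrg1* an inhibitory lectin of terminal stages, and the transcription factors T-bet and ZEB2 drive the last steps of this path.

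Mature NK cells made up 9.64% (95% interval 7.36 to 12.3) of the 581 control NK cells and 20.6% (18.1 to 23.2) of the 996 creatine NK cells. Of all cells kept they were 0.773% (0.585 to 1.00) in the control and 3.29% (2.86 to 3.76) in the creatine library. NK cells as a whole were 8.02% (7.41 to 8.67) and 16.0% (15.1 to 16.9) of all cells. A larger share of a larger NK population thus passed the gate for mature NK cells in the creatine library. Depth differed in the same direction, since mature NK cells had a median of 4379 UMIs per cell in the control library against 5152 in the creatine one, and all NK cells 4098 and 5591. When each cell was thinned at random to 2000 UMIs before the gate, 19 of 454 control NK cells (4.19%, 2.54 to 6.46) and 63 of 817 creatine NK cells (7.71%, 5.98 to 9.76) passed, leaving out 29 control and 17 creatine NK cells of lower depth. Over 20 such draws the share ran from 2.25% to 4.19% in the control and from 6.59% to 9.17% in the creatine library. The draws share their cells and are not replicates, so these ranges leave out counting error. The counting intervals of the first draw, given above, overlapped.

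The number of maturation UMIs per cell, which chose the members, is given as a description of the choice. Of the mature NK cells, 11 of 56 control cells (19.6%, 10.2 to 32.4) and 104 of 205 creatine cells (50.7%, 43.7 to 57.8) held 3 or more UMIs of the 3 genes. At 4 or more the counts were 2 control cells (3.57%) and 53 creatine cells (25.9%). Just inside the threshold, at exactly 2 UMIs, were 45 control and 101 creatine cells, and just outside it, at 1 UMI, were 106 and 220. Most control members thus sat at the threshold. *Itgam* was detected in 75.0% of control and 71.2% of creatine members, *Klrg1* in 51.8% and 55.6%, and *S1pr5* in 32.1% and 40.0%. All 3 genes were detected together in 2 control cells (3.57%) and 18 creatine cells (8.78%).

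**Figure D1:**
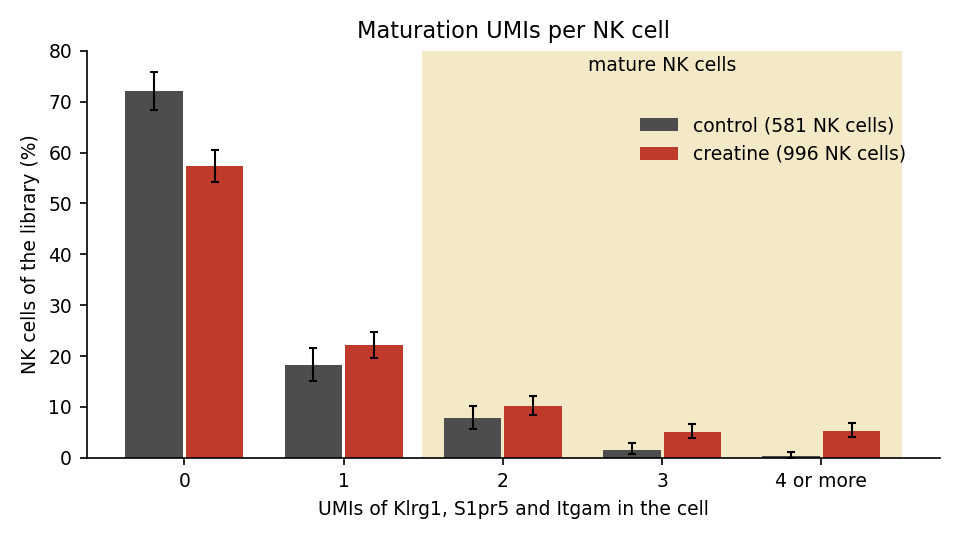
Share of NK cells (%, y axis) by the number of UMIs of *Klrg1*, *S1pr5* and *Itgam* in the cell (x axis), with the control library in grey, the creatine library in red and exact 95% counting intervals as bars. The shaded classes are the mature NK cells; at 4 or more UMIs the shares were 0.344% in the control library against 5.32% in the creatine one.

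The NK cell part of the label, but not the word mature, was checked here with genes that the gate did not use. *Klre1*, an NK receptor of the lectin family, was at 639 CPM (UMIs of the gene divided by all UMIs of the group and scaled to 1000000) in control and 837 CPM in creatine mature NK cells, against 5.31 and 7.72 CPM in *Csf1r*+ myeloid cells and 179 and 106 CPM in CD8 T cells. *Txk*, a kinase of NK and T cells, was at 555 and 596 CPM in the members and at 90.8 and 70.4 CPM in CD8 T cells. The T cell genes *Cd5* and *Cd6*, also outside the gate, had 0 and 2 UMIs in control members and 2 each in creatine members. The full list of 13 NK genes summed to 12786 and 21301 CPM, but it holds the gate genes *Ncr1* and *Klrb1c*. Of its 11 other genes, 6 were at least 1.5-fold higher in control members than in CD8 T cells and 5 were within 1.5-fold. In creatine members 9 were higher and 2 within 1.5-fold. The list of 14 T cell markers summed to 823 and 791 CPM, led by *Trbc1*, with 5 and 4 genes at 0, and it holds the *Cd3* and *Cd8* genes that the gate kept low. Of 13 tested against CD8 T cells, 8 were lower and 2 higher in control members, and 10 lower and 1 higher in creatine members.

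Markers of other cells were not alike in the libraries. Macrophage and monocyte markers summed to 2346 CPM in control and 1494 CPM in creatine mature NK cells, with *Ccr2*, which NK cells express too, on top, and 4 and 3 of 20 genes at 0. Dendritic cell markers summed to 1408 and 219 CPM, led by *Cd74*, with 4 of 14 genes at 0 in each library. Of 839 UMIs of 15 myeloid and dendritic cell genes in the control members, 604 lay in 2 cells, and both were among the top 6% of doublet scores. The cell with 372 of them passed the gate on 3 UMIs of *Itgam* alone. The cell with 232 passed on 1 UMI of *Klrg1* and 1 of *Itgam*. The 205 creatine members held 405 such UMIs, with at most 24 in a cell. The ratios of creatine to control members were low for *Apoe*, of apolipoprotein E (-3.43, -3.92 to -2.95), and for *Cd74*, the invariant chain of MHC class II (-3.21, -3.58 to -2.85). B cell markers summed to 169 and 122 CPM, nearly all *Ighm*, and melanoma markers to 18.1 and 24.6 CPM. Neutrophil markers (15.1 and 2.99 CPM) and red cell and platelet markers (66.3 and 2.99 CPM, all *Pf4*) were low. The part of these cells in the differences below was not tested, but values without the 8 control and 4 creatine members that held 10 or more myeloid UMIs are given where they matter.

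How far the members differed from no-marker cells was described first, in each library by itself. A gene was counted when its CPM differed by 1.5-fold or more, among genes with at least 100 UMIs over both groups. The choice of members used this contrast, so the counts carry no weight as evidence. In the creatine library 198 of 5529 genes (3.58%) were higher and 140 (2.53%) lower in mature NK cells. In the control library 130 of 2935 genes (4.43%) were higher and 207 (7.05%) lower. In the creatine library the split turned to 125 higher and 220 lower when mitochondrial and ribosomal protein genes were left out of the totals, and to 128 and 217 with TMM scaling.

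Genes of terminal maturation were higher in mature NK cells of the creatine library, where 9 of the 18 tested reached 1.5-fold and none was lower. Of all genes there, 3.58% were higher. The list had a median log2 ratio of 0.65 against 0.07 over all genes tested. Among 15 tested in the control library 2 were higher and 1 lower, where 4.43% and 7.05% of all genes were. Their median was 0.06 against -0.02. Among the 18 genes tested, *Cma1*, *Klf2* and *Zeb2* led the list in the creatine library. *Klf2*, which keeps lymphocytes in circulation through trafficking receptors (chromosome 8, 72319033 to 72321656, + strand of GRCm38), was at 393 CPM in creatine mature and 121 CPM in creatine no-marker cells. The log2 ratio was 1.70 (1.52 to 1.89). In the control library the levels were 87.5 and 113 CPM, with a log2 ratio of -0.36 (-0.98 to 0.20) that rests on 29 UMIs in the members. The creatine members thus stood above their no-marker cells and the control members did not, although the control members did when the gate was set on thinned cells, as given below.

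*Zeb2*, a transcription factor of the last maturation steps (chromosome 2, 44983632 to 45117395, - strand), gave the same picture. It was at 232 CPM in creatine mature against 72.5 CPM in creatine no-marker cells, a log2 ratio of 1.68 (1.44 to 1.92). In control cells it was at 78.4 and 75.8 CPM, a log2 ratio of 0.05 (-0.61 to 0.66). *Cma1*, a mast cell chymase gene that terminal NK cells also express (chromosome 14, 55941451 to 55944675, - strand), had the widest gap of the list. It was at 113 CPM (151 UMIs) in creatine mature and 14.7 CPM in creatine no-marker cells, a log2 ratio of 2.94 (2.49 to 3.42). Control mature and no-marker cells had 15.1 CPM (5 UMIs) and 14.9 CPM, so that the creatine members stood apart and the control members did not. In the last 500 bases of its transcript *Cma1* shares 12.4% of windows of 50 bases with the gene model Gm48934, and its counts are to that extent uncertain.

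The share of cells with a UMI followed the levels. *Cma1* was detected in 72 of 205 creatine members (35.1%, 28.6 to 42.1), in 4 of 56 control members (7.14%, 1.98 to 17.3), and in 7.53% and 4.77% of creatine and control no-marker cells. The share in *Csf1r*+ cells, which should lack the gene, was 0.598% and 0.192%, well under all of these. At 2000 UMIs per cell the members kept 19.5% and 5.45%, and the no-marker cells 3.77% and 2.54%. *Cx3cr1*, the fractalkine receptor of late NK cells, had 41 UMIs (30.6 CPM) in 21 of 205 creatine members and none in the 56 control members, which allows a share of cells with a UMI of up to 5.36% and sets no limit on cells that express the gene. Against a floor of 3 UMIs its level was at least 3.38-fold higher in creatine than in control members. Among creatine cells its log2 ratio of mature to no-marker cells was 2.73 (1.88 to 3.64), on few UMIs.

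The cytotoxic genes of the list were at least 1.5-fold higher in creatine members, and at the deposited depth by less than that in control members. With the gate set on thinned cells the contrast between the libraries was smaller, as given below. *Gzma*, the gene of granzyme A (chromosome 13, 113093825 to 113100981, - strand), was at 10896 CPM in creatine mature against 5483 in no-marker cells, a log2 ratio of 0.99 (0.96 to 1.02), and at 5531 against 4546 CPM in the control, a ratio of 0.28 (0.21 to 0.36). *Gzmb*, of granzyme B, had ratios of 0.89 (0.83 to 0.96) and 0.25 (0.05 to 0.45). *Prf1*, the pore-forming perforin (chromosome 10, 61297833 to 61304680, + strand), had 0.89 (0.81 to 0.97) and 0.35 (0.13 to 0.56). Of the 19 genes of the wider cytotoxic granule list tested in the creatine library, 7 were higher and none lower (median 0.32). Of all genes there, 3.58% were higher. In the control library none of 17 was higher and 1 was lower (median 0.16), where 4.43% and 7.05% of all genes were.

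A pair of genes of the list was at least 1.5-fold higher in the members of both libraries. *Serpinb9b*, an inhibitor of granzymes, was at 187 and 193 CPM in control and creatine mature NK cells and at 83.8 and 60.8 CPM in no-marker cells. Its log2 ratios were 1.16 (0.71 to 1.59) and 1.66 (1.40 to 1.93), but the control ratio was -0.20 when cells were thinned before the gate. *Lgals1*, the gene of galectin-1, had ratios of 0.62 (0.45 to 0.79) and 0.72 (0.65 to 0.80). *Itgb2*, the β2 partner chain of CD11b, was at 244 against 246 CPM in the control and 506 against 285 CPM in the creatine library, with ratios of -0.01 (-0.37 to 0.33) and 0.83 (0.69 to 0.97). *Irf8*, a factor of NK cell responses, had 0.40 (0.15 to 0.65) and 0.58 (0.48 to 0.67), both under 1.5-fold. *Hopx*, of a homeodomain protein, was within 1.5-fold in both libraries (-0.16 and -0.07). *Sh2d1b1*, of the adaptor EAT-2, was lower in control members (-1.21, -2.38 to -0.24) and level in creatine members (-0.01).

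Of 18 genes of early NK stages tested in the creatine library, 11 were lower in the members, against 2.53% of all genes, and none higher (median -0.67). Of 17 in the control library 8 were lower, against 7.05% of all genes, none higher and 9 within 1.5-fold (median -0.51, and -0.0281 among cells of 3000 to 8000 UMIs). *Ltb*, the gene of lymphotoxin beta (chromosome 17, 35194439 to 35196320, + strand), was at 190.0 and 139 CPM in control and creatine members against 353 and 363 CPM in no-marker cells. Its log2 ratios were -0.89 (-1.29 to -0.52) and -1.39 (-1.62 to -1.16). *Emb*, an adhesion protein of the basigin family, had -1.16 (-1.59 to -0.76) and -1.12 (-1.35 to -0.90). *Cd7* (-0.61 and -0.80) and *Tcf7*, the gene of TCF-1 (-0.60 and -0.78), were lower by less, *Cd27* was within 1.5-fold (-0.46, -0.99 to 0.03, and -0.50, -0.79 to -0.22), and *Tcf7* was level in the control library among cells of 3000 to 8000 UMIs (0.0197). *Il7r*, of the interleukin-7 receptor, had only 9 and 3 UMIs in the members and 73.6 and 40.4 CPM in no-marker cells, with ratios of -1.44 (-2.60 to -0.47) and -4.17 (-6.47 to -2.60). At the deposited depth *Ltb* and *Emb* therefore separated the members from no-marker cells in the control library too, where *Klf2*, *Zeb2* and *Cma1* did not.

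**Figure D2:**
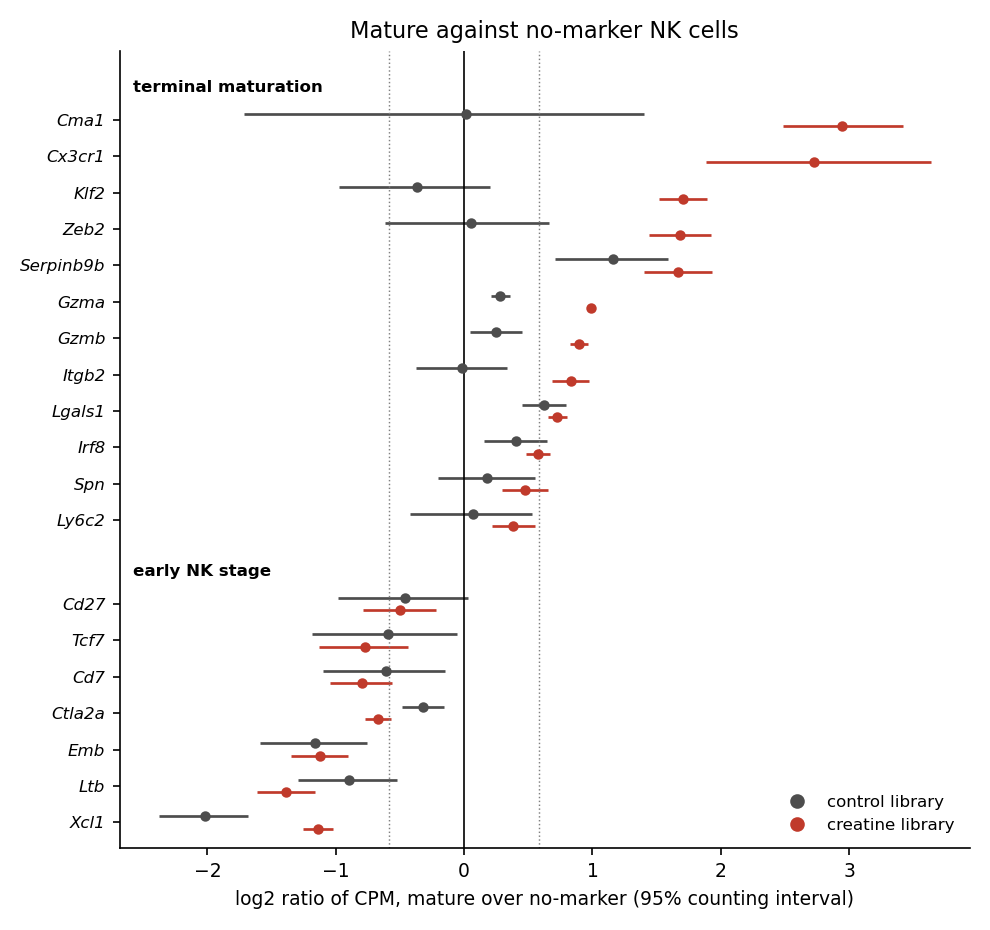
Log2 ratio of CPM of mature over no-marker NK cells (x axis) for genes of terminal maturation and of the early NK stage (y axis), control library in grey and creatine library in red, with 95% counting intervals as bars and dotted lines at 1.5-fold. At the deposited depth *Klf2* (1.70) and *Zeb2* (1.68) passed 1.5-fold in the creatine library and not in the control, and *Serpinb9b* and *Lgals1* in both. Early genes such as *Emb* (-1.16 and -1.12) lie to the left in both. *Cx3cr1* has no control value because the control members held no UMI.

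Some markers of tissue residence and ILC1, the innate cells that stay in tissues, were lower in the members. In the creatine library 5 of 16 were lower, 1 higher and 10 within 1.5-fold (median -0.23), against the same 2.53% of all genes lower. In the control library 5 of 9 were lower and none higher (median -1.11), against 7.05%. Over the alternatives the medians ran from -0.99 to -0.23 in the creatine and from -1.46 to -0.35 in the control library. *Cxcr6*, a receptor of resident lymphocytes, had 2 and 27 UMIs in control and creatine members, and log2 ratios to no-marker cells of -3.40 (-6.46 to -1.51) and -1.44 (-2.07 to -0.85). *Tmem176a* and *Tmem176b*, a pair of ion channel genes, had ratios of -1.73 and -2.33 in the creatine library. The gene that went the other way was *Gzmc*, of granzyme C (1.39, 1.32 to 1.47), whose UMIs came from few cells, with 2566 UMIs in 39 creatine members and up to 653 in 1 cell.

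The levels were next read along the number of maturation UMIs. In the creatine library *Klf2* was at 121 CPM in cells with none, 211 CPM with 1, 315 CPM with 2, 506 CPM with 3 and 434 CPM with 4 or more. *Zeb2* went from 72.5 to 130.3, 178, 297 and 269.7 CPM over the same classes, and *Cma1* from 14.7 to 54.4, 78.7, 148 and 139.7 CPM. *Ltb* was lower in the later classes, at 363, 227, 140.1, 111 and 157 CPM. Creatine NK cells with 1 UMI, which the gate left out, thus lay between no-marker and mature NK cells in these genes. In the control library *Klf2* was at 113, 80.1, 84.2 and 140.8 CPM for 0, 1, 2 and 3 UMIs, and the 2 cells with 4 or more held none. *Ltb* was at 353, 288 and 244 CPM for 0, 1 and 2 UMIs, at 15.6 CPM for 3 UMIs on a single UMI of *Ltb*, and at 132 CPM on 4 UMIs in the last class.

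**Figure D3:**
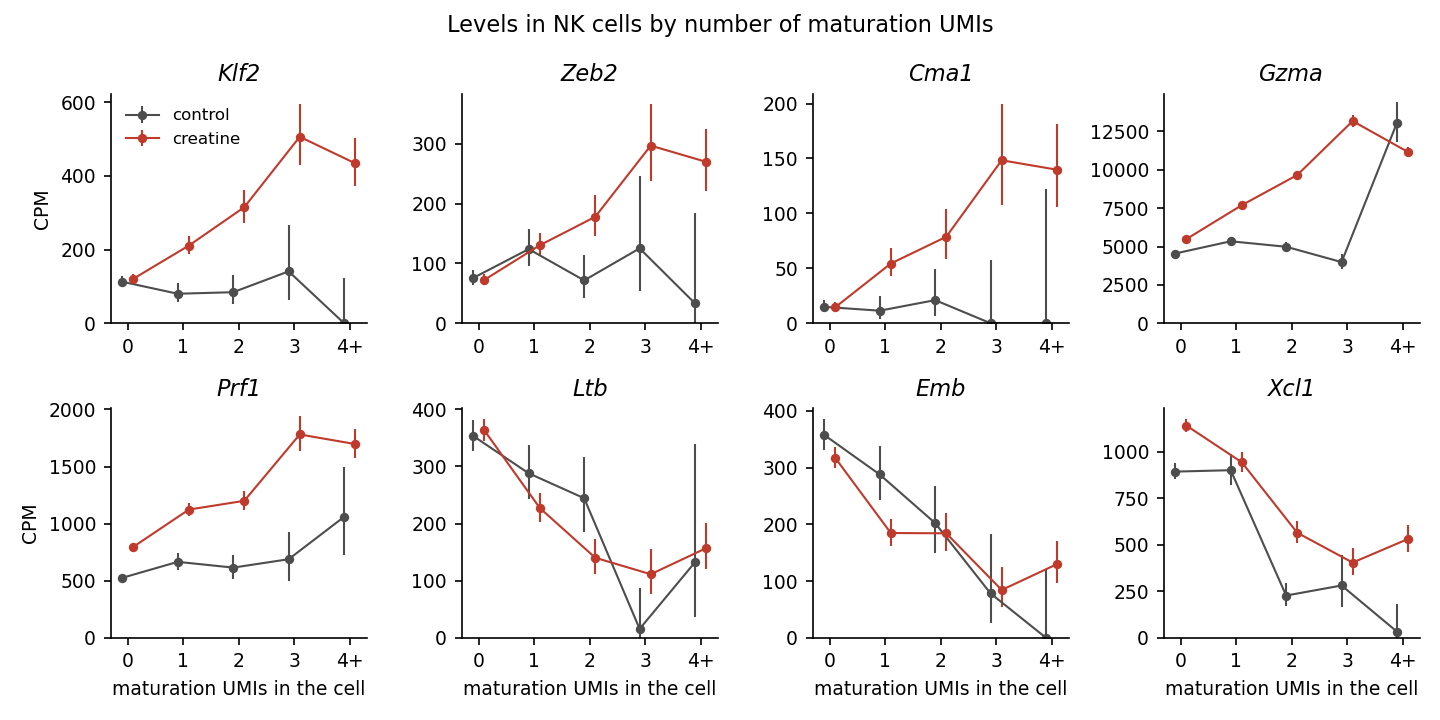
CPM (y axis) of 8 genes in NK cells with 0, 1, 2, 3 and 4 or more UMIs of *Klrg1*, *S1pr5* and *Itgam* (x axis), control library in grey and creatine library in red, with 95% counting intervals as bars. In the creatine library *Klf2*, *Zeb2* and *Cma1* stood higher and *Ltb* lower in cells with more maturation UMIs (*Klf2* from 121 to 506 CPM at 3 UMIs); the last control class holds 2 cells.

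The creatine and control members were then compared directly. Of 2377 genes tested, 292 (12.3%) were at least 1.5-fold higher and 63 (2.65%) lower in creatine mature NK cells, with a median log2 ratio of 0.12 over all of them. The minimum of 100 UMIs was summed over both groups and the creatine members held more UMIs, so genes high in the creatine library passed it more readily. With no minimum, 1929 of 10141 genes were higher and 2027 lower. The genes so added held under 100 UMIs over both groups and have less certain ratios, so this split does not correct the first. The split also depended on the scale: it was 170 higher and 110 lower without mitochondrial and ribosomal protein genes in the totals, and 175 and 116 when each ratio was taken relative to the median gene. In no-marker cells, by the same rule, 145 of 5811 genes (2.5%) were higher and 110 (1.89%) lower, with a median of 0.03. All these ratios share the same 2 libraries, and the counts in members and no-marker cells are not independent of each other. The control members held 331603 UMIs and the creatine members 1339628, so the control side set the precision.

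Before any alternative was applied, terminal maturation genes had the highest median of the lists. Of 14 tested, 11 were higher in creatine mature NK cells and none lower, where 12.3% of all genes were higher. The median was 0.98 against 0.12 over all genes. In no-marker cells 4 of 17 were higher and none lower, with a median of 0.14, where 2.5% of all genes were higher. *Klf2* was at 87.5 CPM in control and 393 CPM in creatine members, a log2 ratio of 2.17 (1.63 to 2.76). In no-marker cells the levels were 113 and 121 CPM, a ratio of 0.10 (-0.14 to 0.34). The library difference in *Klf2* was therefore seen in the members and not in the cells without maturation UMIs. *Zeb2* had ratios of 1.57 (0.99 to 2.20) in members and -0.06 (-0.36 to 0.24) in no-marker cells, and *Cma1* of 2.90 (1.65 to 4.55) and -0.03 (-0.71 to 0.69).

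Other genes differed between the libraries in both populations. *Gzmb* was at 763 and 2188 CPM in control and creatine members and at 641 and 1177 CPM in no-marker cells, with log2 ratios of 1.52 (1.33 to 1.71) and 0.88 (0.78 to 0.97). *Prf1* was at 669 and 1479.5 CPM in members, with ratios of 1.14 (0.94 to 1.35) and 0.60 (0.50 to 0.71). *Irf8* (0.99 and 0.82), *Ly6c2*, a surface protein of late NK cells and monocytes (1.23 and 0.91), and *Hopx* (0.85 and 0.77) were likewise higher in the creatine library in members and no-marker cells. When cells were thinned before the gate the ratios in members were under 1.5-fold for *Irf8* (0.45) and *Ly6c2* (0.23). *Gzma* had ratios of 0.98 (0.91 to 1.05) in members and 0.27 (0.23 to 0.31) in no-marker cells. *Serpinb9b* was the exception among the strong mature genes, with ratios of 0.04 (-0.36 to 0.47) and -0.46 (-0.76 to -0.16). *Ly6c2* shares sequence with related genes in 20.6% of its windows.

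Among NK identity genes 4 of 11 were higher in creatine members, against 12.3% of all genes, and none lower (median 0.42). They were *Gzma*, *Prf1*, *Nkg7*, a granule protein (0.76, 0.62 to 0.90), and *Tbx21*, the gene of T-bet, at 54.3 and 117 CPM (1.11, 0.40 to 1.90). *Eomes*, the T-box factor of earlier NK stages, was at 190.0 and 243 CPM (0.35, -0.04 to 0.77). Its interval included 0. The cytotoxic granule list had 6 of 14 higher and none lower (median 0.38), among them *Fasl*, the death ligand (0.82, 0.29 to 1.40).

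Of the transcription factors, 6 of 17 were higher and none lower in creatine members (median 0.34), where 12.3% of all genes were higher. In no-marker cells 3 of 31 were higher and 1 lower, where 2.5% of all genes were higher. The 6 were *Klf2*, *Zeb2*, *Tbx21*, *Irf8*, *Ikzf3*, of the Aiolos factor (0.78), and *Gata3* (0.60, -0.13 to 1.40), whose interval included 0. *Tcf7*, which is high in early stages, was at 93.5 and 64.2 CPM (-0.54, -1.15 to 0.10). *Runx3* (0.18) and *Id2* (0.41), factors of all NK cells, were within 1.5-fold. Of the early NK genes 1 of 11 was higher in creatine members, *Xcl1*, whose ratio turned under the thinned gate, and 1 lower, *Ly6e*, of a surface protein induced by interferon (-0.78, -0.98 to -0.59), with a median of -0.20.

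**Figure D4:**
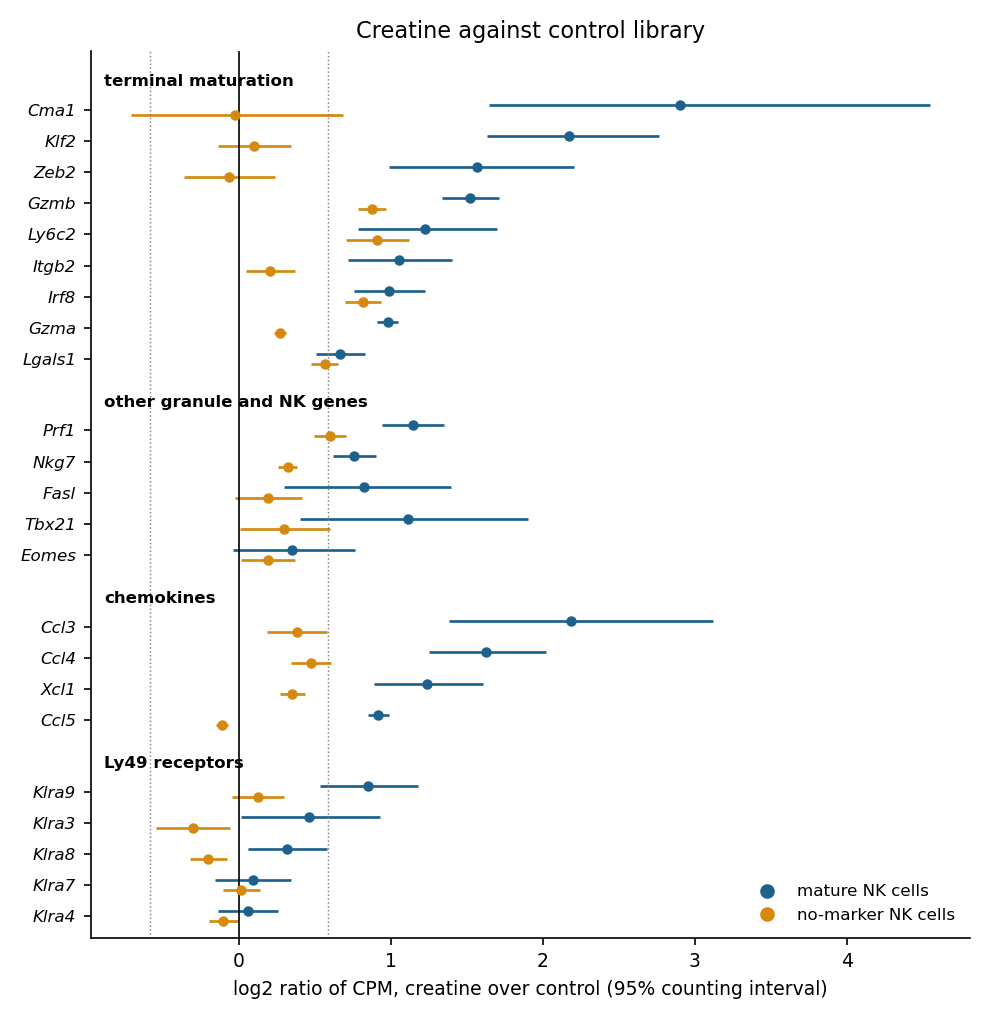
Log2 ratio of CPM of the creatine over the control library (x axis) in mature NK cells (blue) and no-marker NK cells (orange) for 4 groups of genes (y axis), with 95% counting intervals as bars and dotted lines at 1.5-fold. *Klf2* (2.17 and 0.10), *Zeb2* and *Cma1* passed 1.5-fold between the libraries in mature NK cells and not in no-marker cells, *Gzmb* (1.52 and 0.88) in both populations.

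How much of this depends on the gate was read from the cells gated after thinning to 2000 UMIs, with all UMIs of the cells that passed. Thinning set the gate alone: the members that passed had a median of 2873 UMIs in the control library against 4099.8 in the creatine one (medians over the draws), so their depths were not equal. It also loosens the limits on *Cd3*, *Cd8* and *Csf1r* UMIs, and a median of 12.5 control and 57.5 creatine cells per draw were members at the deposited depth. The control members are then 10 to 19 cells per draw (median 15), and the late genes were higher in them than in no-marker cells in most draws. *Klf2* had a median log2 ratio of mature to no-marker cells of 1.43 (0.26 to 2.36 over 20 draws) in the control and of 2.38 (2.04 to 2.80) in the creatine library. *Ccl5* had 1.36 and 1.72, *Prf1* 0.92 and 0.96, and *Gzma* 1.04 and 1.20. *Gzmb* had 0.79 in the control (-1.08 to 2.15, above 0 in 15 draws) and 0.57 in the creatine library, and *Cma1* 0.60 in the control (above 0 in 14 draws, with no UMI in 3) and 3.29 in the creatine library. *Zeb2* had 0.67 (-1.03 to 2.00) in the control and 2.34 (1.88 to 2.84) in the creatine library. Over the terminal maturation list the median in the control library was 0.73 in the first draw, against 0.06 at the deposited depth. In the control library the members thus differed less from no-marker cells when gated at the deposited depth than when gated on thinned cells, for *Klf2*, *Ccl5*, *Prf1* and *Gzma*.

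Under the thinned gate the ratio of creatine to control members had a median of 1.38 for *Klf2* (0.51 to 2.75), 1.53 for *Zeb2* (0.31 to 3.63), 0.63 for *Gzma* (0.47 to 1.96), 0.72 for *Prf1* (0.03 to 1.44) and 0.92 for *Itgb2* (0.22 to 1.36), above 0 in 20 of 20 draws. For *Gzmb* it was 0.94, above 0 in 18 draws. The draws share their cells and are not replicates. Over the 16 alternatives the ratio of creatine to control members ran from 1.36 to 3.66 for *Klf2* and from 0.77 to 1.37 for *Gzma*. It ran from 1.44 to 2.30 for *Zeb2* in the 15 alternatives, and from 2.14 to 4.91 for *Cma1* in the 13, in which these genes reached 100 UMIs. The direction held wherever the 4 genes had a value, and their size did not.

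**Figure D5:**
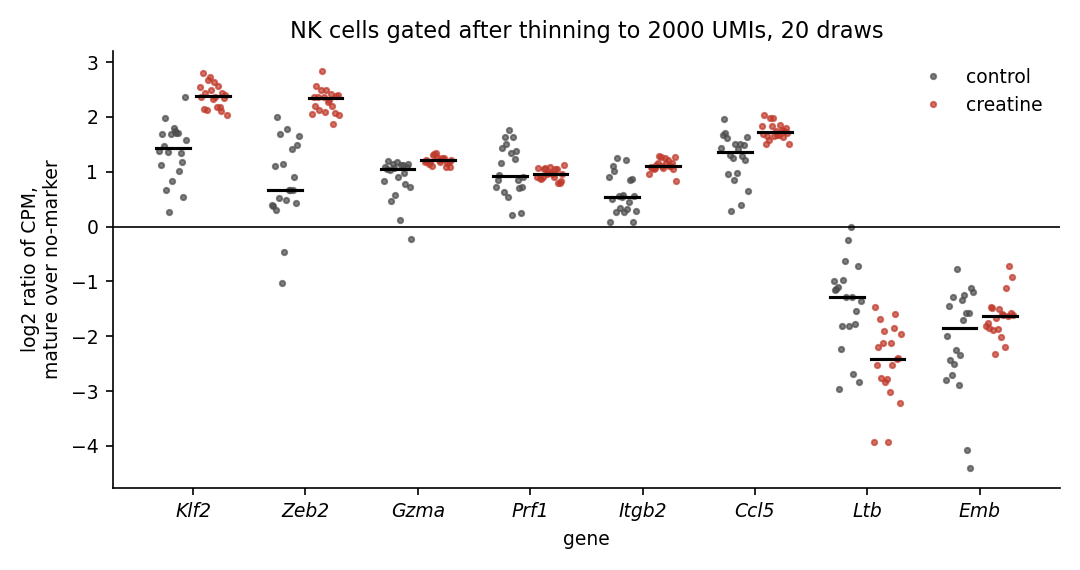
Log2 ratio of CPM of mature over no-marker NK cells (y axis) for 8 genes (x axis) when the gate was set after thinning each cell to 2000 UMIs, with 1 point for each of 20 draws and a black line at the median, control library in grey and creatine library in red. *Klf2* lay above 0 in every draw of both libraries, with medians of 1.43 and 2.38, and the control points, which rest on 10 to 19 cells per draw, spread more.

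Chemokines are the means by which NK cells attract dendritic cells and T cells. *Ccl5* was at 5929 and 11190.4 CPM in control and creatine members and at 4981 and 4614 CPM in no-marker cells. Its log2 ratios of mature to no-marker cells were 0.25 (0.18 to 0.32) and 1.28 (1.25 to 1.31), and of creatine to control 0.92 (0.85 to 0.99) in members and -0.11 (-0.15 to -0.07) in no-marker cells. The ratio in members was 0.38 and under 1.5-fold when cells were thinned before the gate (median 0.49, lowest -0.04 over 20 draws), and 0.46 without cells of 10 or more myeloid UMIs. *Xcl1*, the ligand of cross-presenting dendritic cells, was lower in mature NK cells of both libraries, at 220.1 against 894 CPM in the control (-2.02, -2.38 to -1.68) and 519.5 against 1142 CPM in the creatine library (-1.14, -1.25 to -1.02). It was higher in creatine than control members (1.24, 0.89 to 1.61), but among cells of 3000 to 8000 UMIs that ratio was -0.12, and under the thinned gate it had a median of -0.81 and was above 0 in 6 of 20 draws, so that no direction is given for it.

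*Ccl3* and *Ccl4*, of the macrophage inflammatory proteins, were low in control members. *Ccl3* had 13 UMIs (39.2 CPM) in control and 239 UMIs (178 CPM) in creatine members, against 156 and 204 CPM in no-marker cells. In cells with 1 maturation UMI, just outside the gate, the order was the other way, with *Ccl3* at 534 CPM in the control and 165 CPM in the creatine library and *Ccl4* at 930.2 and 578 CPM. The ratio of creatine to control members was 2.19 (1.38 to 3.12) for *Ccl3*. *Ccl4* was at 187 and 577 CPM in members (1.63, 1.25 to 2.02), a ratio that was 0.26 and under 1.5-fold when cells were thinned before the gate. Control members lay below their no-marker cells in *Ccl4* (-0.90, -1.30 to -0.52) and creatine members above theirs (0.26, 0.13 to 0.38). *Ifng*, of interferon gamma, was at 57.3 and 85.1 CPM, on 19 and 114 UMIs (0.57, -0.14 to 1.35). In all, 4 of 7 cytokine and chemokine genes tested were higher in creatine members and none lower, against 12.3% of all genes higher. Their median was 0.92, but *Xcl1*, *Ccl4* and *Ccl5* did not keep 1.5-fold under the alternatives given here.

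Adhesion and trafficking genes in creatine members had 5 of 11 higher and none lower, against 12.3% of all genes higher (median 0.58, against 0.12 over all genes). *Itga4*, the α4 integrin chain, was at 265 and 409.8 CPM (0.63, 0.30 to 0.97) and separated members from no-marker cells in the creatine library (0.99, 0.83 to 1.15). *Itga2*, of the NK integrin CD49b, had 1.19 (0.52 to 1.93), *Itgb7*, an integrin chain that pairs with α4, had 1.35 (0.59 to 2.23), and *Itgb2* had 1.05 (0.72 to 1.40). *Itga4* was under 1.5-fold under 6 of the alternatives (lowest 0.43), and *Itgb2* under the thinned gate in its first draw (0.35). *Ccr2* (-0.15), a receptor for inflammatory chemokines, was within 1.5-fold. The fifth gene over the threshold was *S1pr4*, a relative of the gate gene *S1pr5*, on 14 and 92 UMIs (0.70, -0.12 to 1.63).

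Receptors for MHC class I were less uniform. *Klra9* and *Klra3*, of the Ly49 family, were higher in mature than in no-marker cells of the creatine library (1.05, 0.90 to 1.20, and 1.02, 0.79 to 1.25), and by less in the control (0.33, -0.02 to 0.65, and 0.26, -0.21 to 0.71). *Klra1* was higher in the control members (1.01, 0.58 to 1.42) and by less in the creatine ones (0.53, 0.30 to 0.76). *Klra4* was at 784 and 816 CPM in the members of both libraries (0.06, -0.14 to 0.26). *Klrb1b*, a receptor of the NKR-P1 family, was lower in members (-0.85, -1.26 to -0.45, and -0.67, -0.90 to -0.44). Ly49 genes resemble each other: *Klra9* shares 44.8%, *Klra3* 42.4%, *Klra7* 27.5% and *Klra8* 13.1% of their windows with other genes, so that reads may be split among them. In the list 2 of 12 genes were higher in creatine members, near the 12.3% of all genes, *Klra9* (0.85, 0.53 to 1.18) and *Klrc1*, of NKG2A (0.69, 0.18 to 1.24), and none was lower. Activating receptors and adaptors had none higher and 1 lower of 17, with a median of 0.04 that became negative without mitochondrial and ribosomal protein genes in the totals (-0.09).

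Many interferon-stimulated genes were lower in mature than in no-marker cells. In the creatine library 12 of 25 were lower and none higher (median -0.58), against 2.53% of all genes lower. In the control library 3 of 15 were lower and none higher (median -0.35), against 7.05%. Over the alternatives the creatine median ran from -0.83 to -0.15. *Isg15*, a ubiquitin-like modifier, was at 35.8 CPM in creatine members against 73.3 CPM in no-marker cells (-1.03, -1.51 to -0.59). *Bst2*, which tethers viruses to the cell surface, had -0.89 (-1.26 to -0.54), and *Igtp*, a GTPase induced by interferon gamma, had -0.86 (-1.27 to -0.47). In no-marker cells 4 of 26 were higher in the creatine library and none lower, against 2.5% of all genes, with a median of 0.28. In the members 2 of 9 were higher and none lower (median 0.22), near the 12.3% of all genes, *Gbp7*, of a guanylate-binding protein (0.98, 0.36 to 1.66), and *Ifi47*, of a GTPase (0.64, 0.15 to 1.17).

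Most genes of energy metabolism were within 1.5-fold between the libraries. Of 69 tested genes of respiration and ATP synthesis, 2 were higher and 1 lower in creatine members, against 12.3% and 2.65% of all genes (median 0.01, and -0.12 without mitochondrial and ribosomal protein genes in the totals). They were *Cycs*, of cytochrome c (0.99), *Ndufs7*, of complex I (0.88), and *Uqcrc1*, of complex III (-0.68). Of 10 glycolysis genes 2 were lower and none higher (median -0.20, but 0.20 without cells of 10 or more myeloid UMIs and 0.0108 at 3 or more maturation UMIs), *Eno1* (-0.68, -0.99 to -0.37) and *Gpi1* (-0.68, -1.03 to -0.32), the enolase and phosphoglucose isomerase genes. Among control cells *Gapdh* (0.69), *Eno1* (0.61) and *Pkm* (0.61) were higher in members than in no-marker cells. The glycolysis median there was 0.51, and it ran from 0.11 to 0.95 over the alternatives. The part of members with myeloid UMIs in these ratios was not tested. None of the creatine transport and metabolism genes reached the minimum of 100 UMIs. *Slc6a8*, the creatine transporter, had 2 UMIs in control and 2 in creatine members, and *Ckb*, the brain-type creatine kinase, had 3 and 9. A difference in single genes was not detectable at this depth. Summed over the 7 genes of the list, the log2 ratio of creatine to control members was -1.15, and no direction is given for it.

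Genes of dividing cells were higher in members than in no-marker cells, with 6 of 8 in the control (median 1.65, against 4.43% of all genes higher) and 10 of 13 in the creatine library (median 0.85, against 3.58%). In creatine against control members 5 of 9 were lower (median -0.97), against 2.65% of all genes. *Mki67*, the proliferation antigen, was at 181 and 92.6 CPM in control and creatine members (-0.97, -1.42 to -0.50), and *Top2a*, of topoisomerase II, at 293 and 141 CPM (-1.05, -1.41 to -0.68). The share of cells with a UMI of *Mki67*, *Top2a*, *Cdk1* or *Birc5* was 26.8% in control and 22.0% in creatine members, and 21.2% and 24.7% in no-marker cells. These medians turned with the cells that were left out. Without members that held 10 or more myeloid UMIs, the median of creatine against control members was 2.42 and that of control members against no-marker cells -1.18, and after thinning creatine members lay at -0.78 against no-marker cells. No direction in cell division is therefore given for mature NK cells.

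Immediate early genes, which respond to stimulation and to tissue dissociation, had 5 of 14 higher and none lower in creatine members (median 0.29), where 12.3% of all genes were higher. In no-marker cells 6 of 22 were higher (median 0.21), where 2.5% of all genes were. *Ier2* was at 109 and 224 CPM in members (1.04, 0.54 to 1.59), *Junb* at 293 and 493 (0.75, 0.44 to 1.08), and *Egr1* at 33.2 and 78.4 (1.24, 0.34 to 2.29). Their no-marker ratios were 0.50, 0.45 and 0.60. The median share of mitochondrial UMIs was 4.56% in control and 4.14% in creatine members. The part of dissociation in the differences between the libraries was not tested.

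Cytokine receptors and their signaling genes had 2 of 15 higher and none lower in creatine members, near the 12.3% of all genes, with a median of 0.20 that was -0.01 when each cell had equal weight. *Il2rb*, the shared receptor chain for interleukin-2 and interleukin-15 on which NK cells depend, was at 739 and 1094 CPM (0.57, 0.37 to 0.77). *Il18rap*, of the interleukin-18 receptor, had 0.50 (0.11 to 0.91).

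Outside the lists, the 8 genes with the largest ratios of creatine to control members were *Nifk*, *Dusp5*, *Arfgef1*, *Tle3*, *Tmem37*, *Pole4*, *Ccnd2* and *Lpin1*, of 151 genes in both directions whose CPM intervals did not overlap. *Ccnd2*, of cyclin D2, had the most UMIs of them, at 353 CPM in control and 899 CPM in creatine members (1.35, 1.07 to 1.64). It was lower in mature than no-marker cells of the control (-0.40, -0.69 to -0.12) and higher in those of the creatine library (0.50, 0.40 to 0.60). *Nifk*, of a nucleolar protein that binds Ki-67, had 4 control and 98 creatine UMIs (2.60, 1.20 to 4.50). *Dusp5*, a phosphatase of ERK kinases, had 1.63, and the other five ranged from 1.28 (*Lpin1*) to 1.61 (*Arfgef1*).

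Among the lowest were *Fabp5*, *Lgals3*, *Ctsb*, *Ctsz*, *Psap*, *Ccl1* and *Epb41*. Several of them are abundant in myeloid cells, and their control UMIs lay in few cells. Of 105 control UMIs of *Fabp5*, a fatty acid binding protein, 83 came from 1 cell, as did 77 of 110 of *Lgals3*, of galectin-3, and 80 of 127 of *Ctsb*, of cathepsin B. *Ccl1*, a chemokine for CCR8, came almost wholly from 1 cell in each library, with 115 of 121 and 174 of 191 UMIs. The ratios of these 4 genes thus describe a few droplets, that of *Fabp5* (-2.87) included.

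By the rule for genes outside the lists that separate members from no-marker cells in both libraries, the highest were *Ccl1*, *Hist1h4h*, *Lmnb1*, *Tubb5*, *Hist1h4d*, *Tuba1b*, *Khdc1a* and *Lgals3*. *Khdc1a* had 1.22 (0.71 to 1.71) in the control library against 0.69 (0.37 to 1.01) in the creatine one. *Ccl1*, first in rank, rests on 1 cell in each library, as given above. *Lmnb1*, of lamin B1, *Tubb5* and *Tuba1b*, of tubulins, and the histone genes are genes of dividing cells, and *Lmnb1*, *Tubb5*, *Tuba1b* and *Hist1h4d* turned under 1 or more alternatives, as did *Lgals3* in the control and *Ccl1* in the creatine library. The lowest were *Clec2i*, *AC163354.1*, *Use1*, *Park7*, *Lars2*, *Bcl2*, *Eif3e* and *Pfdn5*. *Clec2i*, of a ligand of NKR-P1 receptors, had -1.32 (-2.35 to -0.44) and -0.56 (-0.94 to -0.20). *Bcl2*, the survival factor, was at 392 and 397 CPM in members and 597 and 494 CPM in no-marker cells (-0.61, -0.88 to -0.34, and -0.32, -0.46 to -0.18). Over the alternatives the highest ratios in the creatine library were above 0 for *Bcl2* (0.09), *Park7* (0.17) and *Use1* (0.0023). In the control library that of *Pfdn5* was (0.14).

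CD8 T cells of the same libraries, 2503 control and 2049 creatine cells, show where the library difference was not limited to mature NK cells. *Klf2* was at 18.6 CPM in control and 49.3 CPM in creatine CD8 T cells, a log2 ratio of 1.41 (1.27 to 1.55), while no-marker NK cells had 0.10. *Gzma* had a ratio of 1.00 (0.92 to 1.07) in CD8 T cells, close in size to the 0.98 of mature NK cells. *Zeb2* (0.16, 0.06 to 0.26) and *Gzmb* (0.08, 0.06 to 0.10) had smaller ratios there than in the members.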

How the data were processed

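The deposited files hold raw UMI counts per gene and cell barcode, which the authors made with Cell Ranger 3.0.2 against mm10, 1 library per group with 4 tumors pooled. Barcodes with over 25% mitochondrial UMIs were removed, leaving 13470 of 14152, whereas the study's methods state that all but a single cell passed its filter. The libraries then held 79319769 (control) and 72091124 (creatine) UMIs. NK cells, mature NK cells (at least 2 UMIs of *Klrg1*, *S1pr5* and *Itgam*) and no-marker cells were gated on raw counts, CD8 T cells by at least 2 UMIs each of *Cd3* and *Cd8* genes, and myeloid cells by at least 2 UMIs of *Csf1r* with no *Cd3* UMI. UMIs were summed per gate and library and divided by the total (CPM). Ratios have exact conditional binomial 95% intervals, shares exact Clopper-Pearson ones, and a floor for a count of 0 is 3 counts. All cover counting error only. Genes with at least 100 UMIs over both groups were tabulated, and 1.5-fold was the threshold. CPM were not divided by transcript length, so levels were not compared between genes.

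The members and the 24 gene lists (461 genes) were chosen with earlier results of these data known. The text names genes of these lists and, outside them, the 8 genes with the highest and the 8 with the lowest ratio whose CPM intervals did not overlap, leaving out Gm and Rik models and mitochondrial and ribosomal protein genes. For members against no-marker cells the ratio nearer to 0 of both libraries set the rank, with the same sign and no overlap in each. Some genes that these rules name are not reported here. No other doublet step was applied: the automatic threshold of Scrublet marked 3 control (0.0414%) and 9 creatine cells (0.144%), too few to have worked, so leaving out the top 6% of scores was an alternative. In all, 16 alternatives were run, 2 of them chosen after seeing the data (leaving out cells with 10 or more UMIs of 15 myeloid genes, or with a UMI of 4 cell cycle genes). Thinning to 2000 UMIs used a seed of 1 for the first of 20 draws. The scripts were tested on simulated data. Gene positions and shared windows came from GENCODE M21 on GRCm38. Computations ran in Python 3.11.15 on scanpy 1.11.5, scipy 1.17.1, pandas 2.3.3 and numpy 2.4.6, figures on matplotlib 3.10.9, and edgeR 4.0.16 (R 4.3.3) gave the TMM factors.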

Additional observations from a re-analysis of the deposited data

Results flagged for a closer look

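For the following genes the ratio of creatine to control had opposite signs in mature and no-marker NK cells, or the ratio of mature to no-marker cells had opposite signs in the control and creatine libraries, with counting intervals that did not include 0. The differences themselves were not tested, since there is 1 library per group.

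Of creatine against control, *Il18rap*, of the interleukin-18 receptor, had log2 ratios of 0.50 in mature and -0.27 in no-marker cells. *Itga4*, of the α4 integrin, had 0.63 and -0.20, *Dusp2*, an inducible phosphatase, 0.68 and -0.37, and *Ccl5* 0.92 and -0.11. *Gapdh* went the other way, at -0.20 and 0.25. Of the receptor genes, *Klrc2* had 0.45 and -0.18, *Klra8* 0.32 and -0.20, and *Klra3* 0.46 and -0.30. Over the alternatives the lowest ratio in members was -0.02 for *Klra8* and -0.06 for *Klra3*, so their opposite signs were not kept throughout. The Ly49 genes share sequence with their relatives and may exchange reads. *Gzmc* had 0.59 and -0.25, with 653 of 2566 creatine UMIs in 1 cell.

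Of mature against no-marker cells, *Ccnd2*, of cyclin D2, had -0.40 in the control library against 0.50 in the creatine one, and *Ccl4* had -0.90 and 0.26.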

How the results depend on the processing

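The share of mature NK cells was higher in the creatine than in the control library under the 11 of 16 alternatives that change which cells are counted, and *Klf2*, *Zeb2*, *Cma1* and *Gzma* were higher in creatine than control members wherever they had a value (*Zeb2* in 15 and *Cma1* in 13 of 16, the others in all). The values below moved beyond their error, by over 1.5 times or in sign. The cause was not tested. No paired analysis was possible because each group has only 1 library. The 56 control cells limit every ratio that includes the control members.

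With cells thinned to 2000 UMIs before the gate, members were 4.19% of control and 7.71% of creatine NK cells. They were 0.287% of 6628 control and 1.06% of 5931 creatine cells, since cells of lower depth were left out. Counts past 1.5-fold were 38 higher and 27 lower of only 417 genes tested for creatine against control members, where 2377 were tested without thinning. For members against no-marker cells they were 380 and 398 of 2469 in the control, and 732 and 569 of 5049 in the creatine library. Ratios to no-marker cells turned for *Lgals3* (-0.34), *Serpinb9b* (-0.20) and *Tuba1b* (-0.57) in the control, and for *Ccl1* (-4.26), *Hist1h4d* (-0.23), *Lmnb1* (-0.45), *Tuba1b* (-0.37), *Tubb5* (-0.44) and the median of dividing cell genes (-0.78) in the creatine library. At 3 or more maturation UMIs the shares were 1.89% and 10.4% of NK cells and 0.152% and 1.67% of all cells. The counts against no-marker cells were 326 and 674 of 2633 genes (control) and 345 and 253 of 5093 (creatine library). The dividing median of creatine against control members was 0.59. With *Klrg1* and *S1pr5* alone the shares were 3.10% and 10.5% of NK cells, and 0.249% and 1.69% of all cells. The counts against no-marker cells were 253 and 500 of 2712 genes (control) and 338 and 250 of 5133 (creatine library). *Lgals3* was then at -1.02 in the control, and *Ctsb* at 0.18 for creatine against control members.

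Among cells of 3000 to 8000 UMIs the members were 6.71% of control NK cells, and 1.06% of control and 6.45% of creatine cells in that range. *Xcl1* then had -0.12 for creatine against control members. In the control *Lgals3* had -0.25, *Tcf7* 0.0197, *Tuba1b* -0.18 and *Tubb5* -0.0317, and in the creatine library *Tuba1b* had -0.29 and *Tubb5* -0.0565. Of 4424 genes tested, 55 were lower in creatine no-marker cells. Without cells with 2 or more UMIs of the 24 dividing genes, 10 control and 49 creatine members and 308 of 2377 tested genes were left. Members were then 0.138% and 0.787% of all cells, dividing ones included, and 1.03% and 4.75% of the cells left. Over these few cells the counts were 57 and 29 for creatine against control members. Against no-marker cells they were 45 and 51 of 504 genes (control) and 80 and 42 of 1091 (creatine). In no-marker cells they were 55 and 26 of 1331, and *Tuba1b* had -0.31 in the creatine library. Leaving out cells with a UMI of *Mki67*, *Top2a*, *Cdk1* or *Birc5* was an alternative added after seeing the data. The shares were then 0.566% and 2.57% of all cells, those with such a UMI included, and 1.09% and 4.31% of the cells left. Of 1458 genes tested 187 were higher in creatine members, and of 2096 tested 77 were higher in control members against no-marker cells. *Lgals3* had -0.0344 in the control, and *Hist1h4d* -0.0792 and *Tuba1b* -0.33 in the creatine library. With no *Cd3* or *Trac* UMI, members were 2.30% of all creatine cells. Of 1577 genes tested 187 were higher in creatine members, and of 2142 tested 127 were lower in control members against no-marker cells. The dividing medians were 0.083 for creatine against control members and -0.39 in the control. *Hist1h4d* had -0.18 in the control library against -0.15 in the creatine one.

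Without the cells of 10 or more myeloid UMIs, also added after seeing the data, creatine against control members had 2.42 for the dividing median and 3.37 for *Ccl1*, and members against no-marker cells of the control -1.18 for the dividing median, -0.40 for *Hist1h4d*, -0.17 for *Lgals3*, -0.38 for *Tuba1b* and -0.16 for *Tubb5*. Without the top 6% of doublet scores *Lgals3* had -0.19 there. Of the scalings, leaving out mitochondrial and ribosomal protein genes gave 170 and 110 of 2282 genes for creatine against control members. For creatine members against no-marker cells it gave 125 and 220 of 5428. Centring gave 175 and 116 of 2377 for the former comparison, and TMM gave 128 and 217 of 5529 for the latter. Equal weight for each cell gave 111 of 2377 lower in creatine members and 167 of 5811 lower in creatine no-marker cells. With no UMI minimum the counts were 1929 and 2027 of 10141 genes for creatine against control members, and 1192 and 1839 of 12197 in no-marker cells. For members against no-marker cells they were 2136 and 1682 of 10261 (control) and 1841 and 1068 of 11729 (creatine).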

Other observations

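In creatine mature against no-marker NK cells, *Itga2*, of CD49b, had a log2 ratio of 0.92, against -0.09 in the control library. Of the 19 cytotoxic granule genes tested in the creatine library, 7 were higher, against 3.58% of all genes, and 12 were within 1.5-fold. Among the 7 were *Stx11*, of syntaxin 11, at 0.75, *Ctsc*, of the protease that activates granzymes, at 0.61, and *Unc13d*, of the priming factor Munc13-4, at 0.60. Of 15 chemokine receptor and trafficking genes tested in the same comparison, 3 were higher and 3 lower, against 3.58% and 2.53% of all genes. *Cxcr4*, of the receptor that holds cells in the bone marrow, was lower at -1.46, and *Cxcr3*, of the receptor for interferon-induced chemokines, at -1.05. *Gpr183*, of an oxysterol receptor of tissue lymphocytes, was at -2.89. Of 30 transcription factors, 3 were higher and 2 lower, and *Ikzf2*, of Helios, was at -1.11.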
